A study of Mus musculus with 10 samples.

Results

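Histones package DNA, and the genes described here are those the array annotation names with a symbol beginning H1f, H2ac, H2bc, H3c or H4c, which covers the replication-dependent histone genes and a few relatives. Each gene was read from its probe set carrying that single symbol, with no filter on level, and the rule found 30 genes among the 19938 genes named in this way. They comprised 8 H1 genes, 4 H2A genes, 9 H2B genes, 3 H3 genes and 6 H4 genes, and each had exactly 1 such probe set. By name, 24 of them were kept as clustered replication-dependent genes. Whether each of the 24 is made only during replication was not tested. The other 6 are, by name, replacement or germ-cell histones: H1f10 is a replacement linker histone, H1f6 and H1f7 are known from male germ cells, H1f8 from the oocyte, and H2ac1 and H2bc1 from the testis. RefSeq lists 70 mouse genes with a symbol of the rule, and 40 of these had no single-symbol probe set. Those 40 can be seen only through probe sets shared between copies, described further on.

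The mice were male TRAMP animals, in which a T antigen is driven by the promoter of probasin, a secretory gene of prostate epithelium, so the transgene is active mainly in those cells and prostate tumours follow. From 8 to 9 weeks of age, 5 mice drank tap water with nicotine tartrate, at 250 µg/ml of nicotine, and 5 drank tap water alone. Every mouse, water mice included, carried the transgene, and age at collection and tumour stage are not used here. Total RNA from each prostate was hybridised to 1 whole-transcript array, and the deposited values are on a log2 scale, so that a difference of 1 is a 2-fold change in signal. The series title places the experiment within work on the tumours of smokers, and the comparison asks how prostate expression differed under nicotine.

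Most histone protein is made while DNA is being copied. As a rule, the clustered genes are switched on in S phase. Their messages typically end in a stem-loop held by the protein SLBP in place of a poly(A) tail. This ending allows rapid decay when replication stops. H2A, H2B, H3 and H4 form the nucleosome core, H1 binds the linker DNA, and replacement variants from genes outside the clusters are made throughout the cycle. In tissue, such messages are taken as a mark of replicating cells, but not every clustered gene need follow this rule.

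Many of the promoters hold strings known from histone promoters, but H1f7, H1f10, H3c15 and H4c8 had no match to those searched below. A few promoters are printed because the genes they belong to are those whose values separate the groups below, or fail to. Of the 30 genes, 26 had a RefSeq promoter on GRCm38.p6, and those of H2bc4, H2bc21, H3c7 and H4c14 were missing. Both strands of the 250 bases before each start were searched for the octamer ATTTGCAT, which is bound by Oct factors, for the TATA letters TATAAA, for CCAAT, and for the H1 box AAACACA. Each sequence shows the 150 bases before the start, 5′ to 3′ on the gene's strand, with matches in capitals.
H2bc18, chr3:96269550-96269699, plus strand: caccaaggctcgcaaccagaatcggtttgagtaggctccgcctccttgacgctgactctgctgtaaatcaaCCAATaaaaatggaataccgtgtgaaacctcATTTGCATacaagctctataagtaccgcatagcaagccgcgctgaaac
H2ac4, chr13:23750938-23751087, plus strand: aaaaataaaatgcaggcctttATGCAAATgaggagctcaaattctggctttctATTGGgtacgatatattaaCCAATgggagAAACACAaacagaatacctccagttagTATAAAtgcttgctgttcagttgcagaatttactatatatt
H2ac1, chr13:23934287-23934436, plus strand: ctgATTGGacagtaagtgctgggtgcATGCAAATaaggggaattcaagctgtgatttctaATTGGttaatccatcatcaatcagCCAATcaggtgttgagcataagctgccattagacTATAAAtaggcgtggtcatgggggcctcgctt
H2bc1, chr13:23934157-23934306, minus strand: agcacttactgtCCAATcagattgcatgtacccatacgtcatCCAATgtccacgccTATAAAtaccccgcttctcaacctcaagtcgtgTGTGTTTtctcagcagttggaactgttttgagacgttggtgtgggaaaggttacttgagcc
H1f1, chr13:23763518-23763667, plus strand: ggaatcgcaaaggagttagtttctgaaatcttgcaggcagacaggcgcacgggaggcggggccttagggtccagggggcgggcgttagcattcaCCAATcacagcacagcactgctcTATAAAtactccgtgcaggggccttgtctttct
H1f5, chr13:21780626-21780775, minus strand: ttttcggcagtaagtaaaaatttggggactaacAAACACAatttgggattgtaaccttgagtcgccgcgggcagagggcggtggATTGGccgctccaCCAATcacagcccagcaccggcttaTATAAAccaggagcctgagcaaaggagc
H1f2, chr13:23738657-23738806, plus strand: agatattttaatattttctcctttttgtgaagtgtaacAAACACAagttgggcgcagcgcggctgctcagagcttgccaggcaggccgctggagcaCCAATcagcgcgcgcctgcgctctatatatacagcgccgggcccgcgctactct
H4c6, chr13:23551669-23551818, minus strand: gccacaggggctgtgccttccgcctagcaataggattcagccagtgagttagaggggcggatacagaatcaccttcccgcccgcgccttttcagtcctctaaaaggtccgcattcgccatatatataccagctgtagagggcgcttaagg

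The octamer occurred in 3 of 4 H2A promoters and 5 of 7 H2B promoters, and in none of the 8 H1, 2 H3 and 5 H4 promoters, against 1.60% of the 32851 promoters in the table. TATAAA occurred in 14 of the 26 histone promoters, against 12.4% of all promoters. CCAAT occurred in 20 of the 26, against 33.8%. The H1 box occurred in 4 of 8 H1, 2 of 4 H2A and 2 of 7 H2B promoters, against 6.25% of all promoters. None of the 4 strings overlaps another within the printed stretches. H2ac1 and H2bc1 lie head to head, and their windows share bases, so their matches are not independent. The printed H4c6 stretch holds none of the 4 strings, but the 250 bases searched hold TATAAA, so H4c6 is counted for it. The octamer of H2bc1 and the H1 box of H2ac1 were likewise found only outside the printed stretch. A match is a string of letters and not a binding site.

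Of the 10 libraries, those of nicotine mice 1 and 3 were least like the rest, with median correlations of 0.945 and 0.838 to the other arrays, whereas no pair among the other 8 fell under 0.990. Summed neuroendocrine markers, 7 genes, reached 12.89 in nicotine mouse 1 and 13.18 in nicotine mouse 3 on the log2 scale, against 9.96 to 10.28 in the other nicotine mice and 9.81 to 10.38 in water mice. The 5 luminal secretory markers summed to 9.88 in nicotine mouse 3, against 14.19 to 14.49 in water mice, and the 6 skeletal muscle markers summed to 13.64 in nicotine mouse 1, against 11.26 to 11.44 in water mice. Pbsn itself, the probasin gene that marks the labelled tissue, read 9.17, 12.20, 5.08, 11.06 and 10.86 in nicotine mice, against 11.08, 10.95, 11.35, 10.96 and 11.54 in water mice. The 10 seminal vesicle markers summed to 9.44 to 16.02 in nicotine mice and 11.45 to 16.54 in water mice, the 6 smooth muscle markers to 11.13 to 14.53 in nicotine mice and 14.22 to 14.45 in water mice, and the 5 lymphocyte markers to 9.19 to 9.65 in nicotine mice and 9.64 to 10.21 in water mice. The main results are therefore given with and without nicotine mice 1 and 3. In RNA from whole tissue, fewer cells of a type and less RNA per cell cannot be told apart, and the part of these markers in the histone values was not tested.

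Histone genes lay mostly higher in nicotine prostates. The log2 difference, nicotine minus water, was positive for 27 of the 30 genes, against 52.7% of all genes, and its median was 0.54, a fold of 1.45, against 0.01 over all genes. All 5 nicotine mice lay above every water mouse for 12 histone genes, against 1.63% of all genes, and below every water mouse for 0, against 2.33%. At an unadjusted p under 0.05 in limma, 15 histone genes were higher and 0 lower, against 3.93% and 5.31% of all genes. After Benjamini-Hochberg adjustment over all genes, 0 of the 30 passed 0.05, as did 0 of all genes (0%), and the smallest adjusted p was 0.514. No gene is therefore described as changed in this fit.

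The size of the difference rested largely on nicotine mice 1 and 3, while its direction did not. Without them the median was 0.22, with 28 of 30 positive, against 54.6% of all genes. The number of histone genes with nicotine mice all above water mice was again 12, against 3.52% of all genes. That count cannot fall when mice are left out, so it does not bear on the part of those mice. At an unadjusted p under 0.05, 16 were higher and 0 lower, against 5.21% and 7.22%. Again 0 passed the adjusted threshold, where the smallest adjusted p in limma was 0.0649. When limma weighted each array by its fit, nicotine mouse 1 received a weight of 0.157 and nicotine mouse 3 one of 0.0456, against a median of 1.55 for the other 8. Among those 8, nicotine mouse 5 received 3.97 and water mouse 3 received 3.74, while the rest ran from 0.910 to 2.24. Water mouse 3 held the lowest value for 14 of the 30 histone genes, and nicotine mouse 5 held the highest for 0. How far calls under these weights rest on nicotine mouse 5 and water mouse 3 was not tested. With those weights 11 histone genes passed an adjusted p of 0.05, all higher under nicotine, against 0.762% of all genes higher and 2.35% in either direction. They were H1f1, H1f5, H2ac15, H2bc1, H2bc9, H2bc14, H2bc18, H4c3, H4c4, H4c6 and H4c8, and all of them are also among the 12 whose groups did not overlap.

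**Figure D1:**
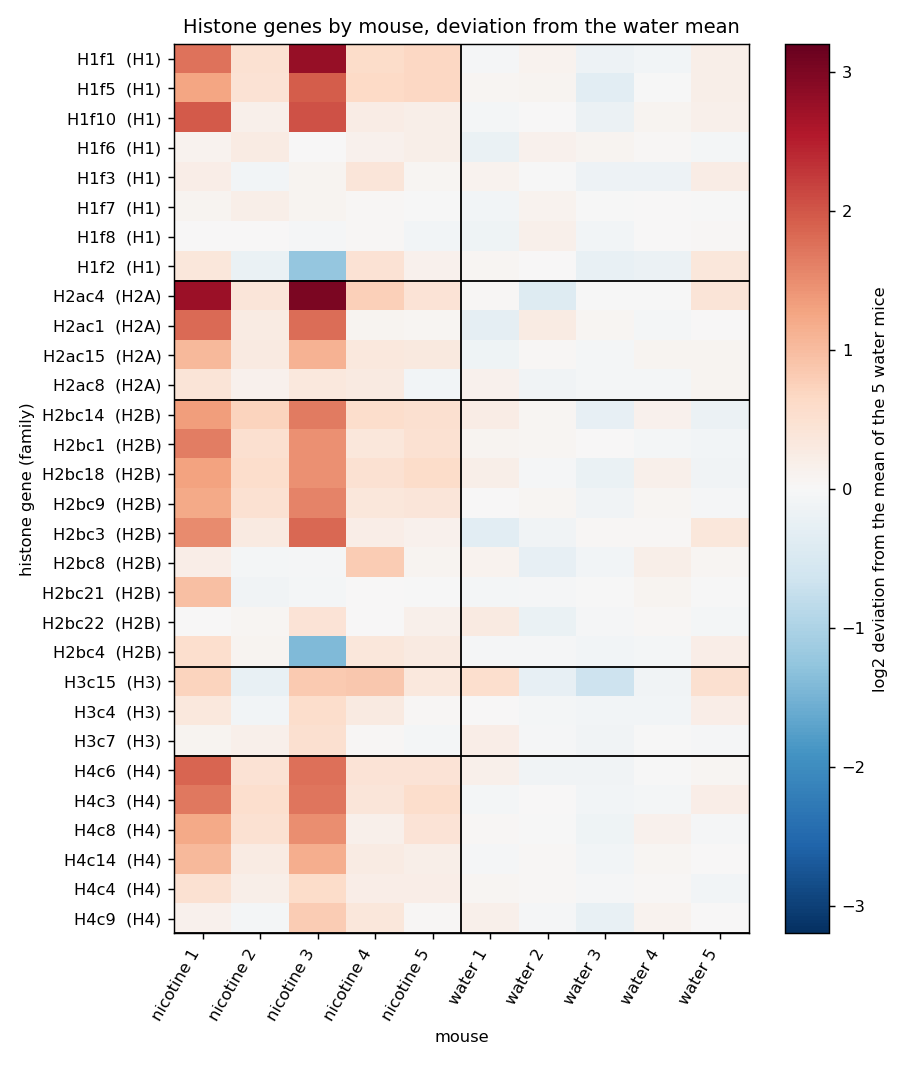
Log2 deviation of each of the 30 histone genes (rows, by family) from the mean of the 5 water mice, for each of the 10 mice (columns, nicotine left, water right). Nicotine mice 1 and 3 are darkest red in most rows, while H1f2 and H2bc4 are blue in nicotine mouse 3.

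Mouse by mouse, the median deviation of the 30 genes from their water means was 1.00, 0.22, 0.97, 0.35 and 0.19 in nicotine mice 1 to 5, against −0.08 to 0.05 in the 5 water mice. All 5 nicotine mice thus lay above every water mouse, and 2 of them by far the most. Of the 30 genes, 23, 15, 22, 22 and 16 lay above every water mouse in nicotine mice 1 to 5. The same counts over all genes are not given, so these describe the 30 genes only. The highest value of all 10 mice fell in nicotine mouse 3 for 17 genes and in nicotine mouse 1 for 6, and in a water mouse for 1. Spread followed the same line, with a median SD over the histone genes of 0.473 in nicotine mice and 0.132 in water mice, against 0.196 and 0.0939 over all genes.

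Families differed in their typical difference. The median log2 difference was 0.80 for H2B, 0.71 for H2A, 0.67 for H4, 0.23 for H3 and 0.13 for H1. Without nicotine mice 1 and 3, the medians were 0.28 for H2B, 0.22 for H2A, 0.30 for H4, 0.07 for H3 and 0.16 for H1, so that H4 stood highest and H2A came close to H1. Nicotine mice all lay above water mice in 5 of 6 H4, 4 of 9 H2B, 1 of 4 H2A, 2 of 8 H1 and 0 of 3 H3 genes, against 1.63% of all genes. These are descriptions of few genes each, with no test between families. The low H1 median includes 4 germ-cell or replacement genes. Without such histones the H1 median was 0.56.

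**Figure D2:**
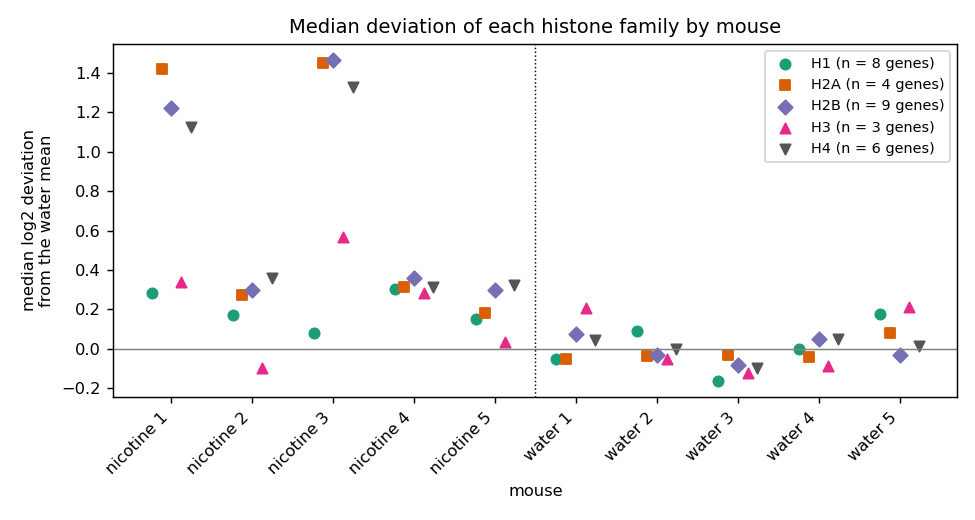
Median log2 deviation from the water mean over the genes of each family, for each mouse (nicotine left of the dotted line, water right). H2A, H2B and H4 exceed 1 in nicotine mice 1 and 3 alone, and all 3 of these families lie above every water mouse in every nicotine mouse.

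Among the linker histones, the replication-dependent H1f1 and H1f5 gave the largest differences with separated groups. H1f1 measured 11.53, 10.28, 12.58, 10.38 and 10.46 in nicotine mice, against 9.75, 9.89, 9.62, 9.69 and 9.97 in water mice. H1f5 measured 11.55, 10.76, 12.22, 10.92 and 10.94 in nicotine mice, against 10.35, 10.36, 9.95, 10.28 and 10.48 in water mice. For both, nicotine mouse 3 was highest and mouse 1 next, and the 3 remaining nicotine mice still cleared every water mouse. The log2 difference was 1.26 ± 0.41 (SE, n = 5 each) for H1f1 and 0.99 ± 0.26 for H1f5, with an adjusted p of 0.514 in limma for both. Without nicotine mice 1 and 3 both differences were 0.59, with adjusted p of 0.0649 and 0.0983.

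H1f2, a linker histone of the same cluster, differed in pattern from H1f1 and H1f5. It measured 10.97, 10.40, 9.36, 11.08 and 10.74 in nicotine mice, against 10.67, 10.62, 10.38, 10.41 and 10.96 in water mice. The groups overlapped, and nicotine mouse 3, which held the highest values of H1f1 and H1f5, held the lowest H1f2 value of all 10. The log2 difference of −0.10 ± 0.30 became 0.13 without nicotine mice 1 and 3. The replacement linker histone H1f10 measured 11.10, 9.31, 11.19, 9.38 and 9.34 in nicotine mice, against 9.08, 9.16, 8.96, 9.24 and 9.31 in water mice. Nicotine mice 1 and 3 lay far above the rest, the other 3 reached about the level of the highest water mouse, and the difference of 0.91 ± 0.41 shrank to 0.19 without them. The germ-cell genes H1f6, H1f7 and H1f8 had differences of 0.14, 0.08 and −0.01, with overlapping groups, and H1f3, another somatic linker histone, had one of 0.13.

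**Figure D3:**
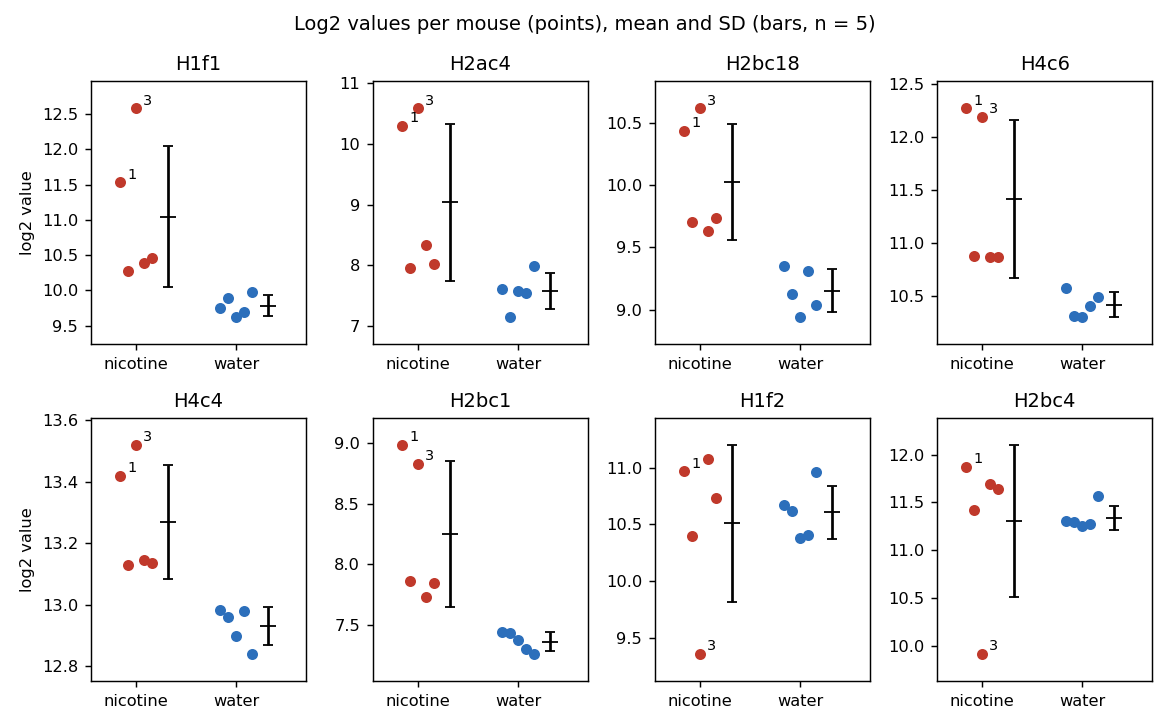
Log2 values of 8 histone genes, 1 point per mouse, nicotine left and water right, with the mean and SD of 5 mice as bars and nicotine mice 1 and 3 numbered. Points do not overlap for H1f1, H2bc18, H4c6, H4c4 and H2bc1, and nicotine mouse 3 lies far below the rest for H1f2 and H2bc4.

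H2A showed the widest difference of any histone gene. H2ac4, a core H2A gene, measured 10.30, 7.96, 10.59, 8.34 and 8.02 in nicotine mice, against 7.61, 7.15, 7.57, 7.55 and 7.98 in water mice. Nicotine mice 1 and 3 were more than 2 log2 units above every water mouse, while nicotine mouse 2 fell just short of water mouse 5. The difference was 1.47 ± 0.54 (SE, n = 5 each; limma adjusted p of 0.514) with all mice and 0.53 without nicotine mice 1 and 3. H2ac15, another core H2A gene, measured 12.44, 11.68, 12.50, 11.74 and 11.69 in nicotine mice, against 11.26, 11.42, 11.34, 11.48 and 11.47 in water mice. These groups did not overlap, and the difference was 0.62 ± 0.18, or 0.31 without mice 1 and 3. H2ac8 differed by only 0.22 and lay under the 25th percentile of level.

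H2ac1 and H2bc1 are the testis H2A and H2B, transcribed head to head from the window printed above. H2ac1 measured 10.61, 9.07, 10.60, 8.88 and 8.87 in nicotine mice, against 8.53, 9.06, 8.88, 8.74 and 8.83 in water mice. H2bc1 measured 8.99, 7.87, 8.83, 7.73 and 7.85 in nicotine mice, against 7.44, 7.43, 7.37, 7.30 and 7.26 in water mice. Both were highest in nicotine mice 1 and 3, but only H2bc1 separated the groups. The differences were 0.80 ± 0.38 for H2ac1 and 0.89 ± 0.25 for H2bc1, and without nicotine mice 1 and 3 they were 0.13 and 0.45. Across the 8 other mice the r of the pair was 0.41. The 5 germ cell markers, 3 of them under the 25th percentile of level, had a summed level of 8.82 to 9.02 in nicotine mice and 8.86 to 9.01 in water mice. Whether either probe set also picks up another copy's message was not tested.

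In H2B, 4 of the 9 genes separated the groups, against 1.63% of all genes. H2bc18, which carries an intact octamer, measured 10.44, 9.71, 10.62, 9.63 and 9.74 in nicotine mice, against 9.35, 9.13, 8.94, 9.31 and 9.04 in water mice. H2bc14 measured 11.79, 11.15, 12.10, 11.00 and 10.95 in nicotine mice, against 10.69, 10.52, 10.18, 10.59 and 10.26 in water mice. Every nicotine mouse cleared the water mice, and H2bc18 gave the smallest unadjusted p of the 30 in limma, 0.00183. The log2 differences were 0.87 ± 0.21 and 0.95 ± 0.23, and 0.54 and 0.59 without nicotine mice 1 and 3. H2bc9 averaged 10.80 ± 0.57 in nicotine mice and 9.99 ± 0.07 in water mice (SD, n = 5 each), a difference of 0.81 that was 0.41 without mice 1 and 3. H2bc3 averaged 11.21 ± 0.81 in nicotine mice and 10.41 ± 0.26 in water mice, and its groups overlapped, with a difference of 0.80 that was 0.21 without mice 1 and 3.

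A pair of H2B genes, singled out after their values were seen, behaved otherwise. H2bc4 measured 11.87, 11.42, 9.92, 11.70 and 11.64 in nicotine mice, against 11.31, 11.30, 11.26, 11.28 and 11.56 in water mice. Nicotine mouse 3 was lowest of all 10, as for H1f2, while nicotine mice 1, 4 and 5 lay above every water mouse. Its difference of −0.03 ± 0.33 was 0.24 without nicotine mice 1 and 3 and 0.32 without mouse 3 alone. H2bc21 measured 7.66, 6.59, 6.64, 6.71 and 6.69 in nicotine mice, against 6.64, 6.67, 6.69, 6.80 and 6.70 in water mice. Only nicotine mouse 1 stood out, and the difference of 0.16 became −0.04 without mice 1 and 3. H2bc8 and H2bc22 differed by 0.21 and 0.14, with overlapping groups.

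In H4, 5 of the 6 genes separated the groups, against 1.63% of all genes. H4c6 measured 12.27, 10.87, 12.19, 10.86 and 10.86 in nicotine mice, against 10.57, 10.31, 10.30, 10.40 and 10.49 in water mice. H4c3 measured 10.19, 9.05, 10.22, 8.89 and 9.07 in nicotine mice, against 8.45, 8.52, 8.43, 8.44 and 8.72 in water mice. Nicotine mice 1 and 3 were the highest in both, and the other 3 nicotine mice sat close together just above the water mice. The differences were 1.00 ± 0.31 for H4c6 and 0.97 ± 0.28 for H4c3, and 0.45 and 0.49 without those mice. H4c4 measured 13.42, 13.13, 13.52, 13.14 and 13.14 in nicotine mice, against 12.98, 12.96, 12.90, 12.98 and 12.84 in water mice. Its difference, 0.34 ± 0.09, was the smallest of the 12 separated genes. Its signal was close to the top of the arrays' values, which reached 14.12, and the part of that in the size was not tested. H4c8 and H4c14 also separated the groups, with differences of 0.76 and 0.58, although nicotine mouse 4 and water mouse 4 both read 7.75 for H4c8 when rounded. H4c9 differed by 0.26 with overlapping groups.

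The 3 H3 genes with a probe set of their own overlapped throughout. H3c15 averaged 6.94 ± 0.46 in nicotine mice and 6.45 ± 0.52 in water mice (SD, n = 5 each), and H3c4 averaged 7.81 ± 0.26 in nicotine mice and 7.59 ± 0.12 in water mice. H3c7, under the 25th percentile of level, averaged 5.22 ± 0.21 in nicotine mice and 5.07 ± 0.12 in water mice. The 4 genes under that percentile had a median difference of 0.14, and the 13 above the 75th percentile one of 0.81. Small differences were thus frequent among genes of low signal.

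Copies that share sequence are read together by 26 further probe sets, which carry between 2 and 20 symbols each and so cannot assign a change to a copy. All 5 nicotine mice lay above every water mouse in 24 of the 26, against 1.63% of the single-symbol genes. Without nicotine mice 1 and 3 the count was 24 of 26, against 3.52%, though such a count cannot fall when mice are left out. The median difference over the 26 was then 0.24 in place of 0.43. The median difference was 0.59 for the 7 H2B sets, 0.50 for the 2 H2A sets, 0.40 for the 10 H3 sets and 0.38 for the 6 H4 sets. For the H3 sets, the median level was 13.64, 13.26, 13.71, 13.23 and 13.24 in nicotine mice 1 to 5, against 13.02, 13.04, 12.92, 13.06 and 13.04 in water mice 1 to 5. H3 messages as a group thus separated the mice even though no single-copy H3 probe set did. These sets overlap in content and are no independent measurements of one another.

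**Figure D4:**
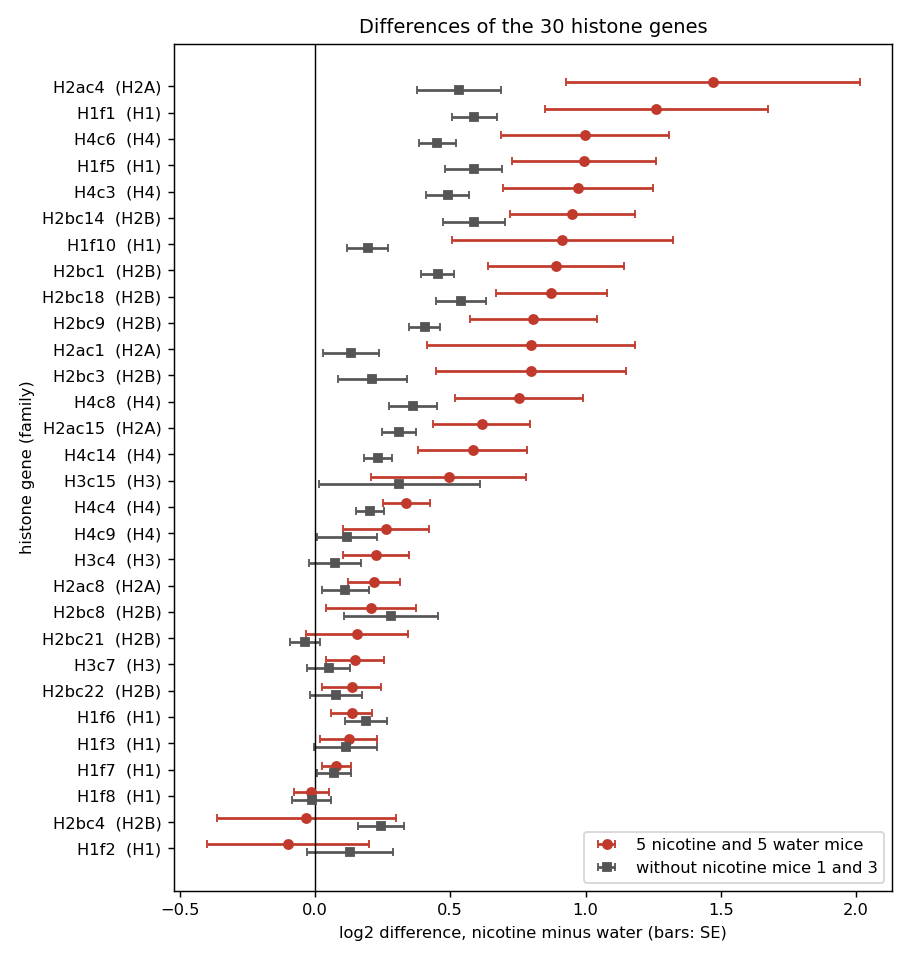
Log2 difference, nicotine minus water, with its SE for each histone gene, from all 10 mice (red circles) and without nicotine mice 1 and 3 (grey squares). The upper genes shrink toward 0 without those mice but stay positive, and H1f2 and H2bc4 cross from negative to positive.

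The proliferation genes set beside the histones were Mki67, which encodes the nuclear antigen Ki-67 of cycling cells, and Tk1, thymidine kinase of S phase. Mki67 measured 11.47, 10.79, 12.27, 10.59 and 10.60 in nicotine mice, against 10.15, 10.02, 10.06, 10.26 and 10.55 in water mice. Tk1 measured 8.99, 9.03, 9.34, 9.13 and 9.15 in nicotine mice, against 8.73, 8.74, 8.70, 8.83 and 8.68 in water mice. Neither gene's groups overlapped, and nicotine mice 1 and 3 were set apart for Mki67 but not for Tk1, where mouse 1 was the lowest of the nicotine mice. Because those 2 mice lie apart from the other 8, correlations were taken over the other 8, as 60 relations in all. The 2 are not alike: their arrays correlated at 0.901 with each other, and that of nicotine mouse 1 at 0.942 to 0.950 with the other 8.

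Over these 8 mice the histone genes had a median Pearson r of 0.63 with Mki67, against 0.02 over all genes, and 28 of 30 were positive. An r of at least 0.8 was reached by 8 of 30, against 2.05% of all genes. With Tk1 the median r was 0.66, against 0.06, with 28 of 30 positive and 12 of 30 at 0.8 or more, against 1.89%. The H4 genes had the highest family medians, 0.79 with Mki67 and 0.86 with Tk1, and H3 the lowest, 0.39 and 0.25. H4 genes also tracked one another, with a median r of 0.82 over their 15 pairs, against 0.42 over the 28 H1 pairs. These pairwise r pool both groups, which most H4 genes separated, and the H1 pairs include germ-cell and replacement genes. Whether H4 genes track one another apart from the group difference was not tested. Since the groups do not overlap for either proliferation gene, the relation across mice and the difference between groups cannot be told apart from r alone. With group as a covariate the median r was 0.23 with Mki67 and 0.03 with Tk1. No correlation was taken within a group alone, since none of the groups has more than 5 mice.

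Only H4c3 passed an adjusted p of 0.05, and only with Mki67, in a limma fit over all genes in which 0.186% of genes passed with a positive relation. Its r was 0.91 (exact permutation p = 0.00761 over 40320 pairings, two-sided; limma adjusted p = 0.0472) and its rho 0.81 (exact permutation p = 0.0218). Without the 2 mice farthest from the median Mki67 level the r was again 0.91, but the adjusted p no longer passed. With all 10 mice 20 of 30 passed, against 20.2% of all genes, and that fit turns on nicotine mice 1 and 3. With Tk1 in 8 mice, 0 of 30 passed, as did 0% of all genes. The highest r with Tk1 was that of H4c4, 0.95 (exact permutation p = 0.000198; rho 0.90, exact p = 0.00456; limma adjusted p = 0.157), and r was 0.92 without the 2 mice farthest in Tk1. The permutations shuffled mice across groups, so these exact p-values also take in the group difference. With group as a covariate r was 0.72 for H4c3 with Mki67 and 0.62 for H4c4 with Tk1. H2bc4 and H1f2 had r of 0.75 and 0.34 with Mki67 in the 8 mice. Both were low in nicotine mouse 3, although its Mki67 value was the highest.

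**Figure D5:**
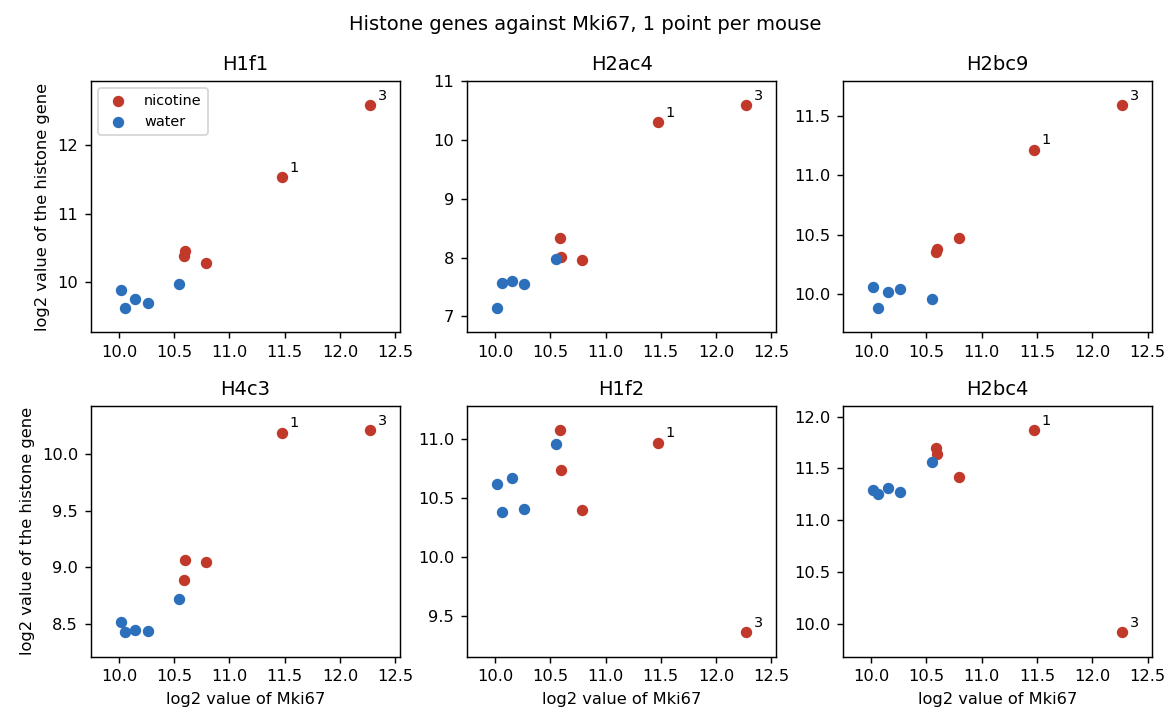
Log2 value of 6 histone genes against that of Mki67, 1 point per mouse, nicotine in red and water in blue, with nicotine mice 1 and 3 numbered. H1f1, H2ac4, H2bc9 and H4c3 are highest in the 2 numbered mice, whereas H1f2 and H2bc4 are lowest in nicotine mouse 3, where Mki67 is highest.

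Other genes of the same process were read as 4 lists. Of 24 S-phase genes measured, 24 were positive, against 52.7% of all genes, with a median difference of 0.42, or 0.20 without nicotine mice 1 and 3. At an unadjusted p under 0.05, 13 were higher and 0 lower, against 3.93% and 5.31% of all genes. Mcm5, a subunit of the replicative helicase, averaged 10.94 ± 0.19 in nicotine mice and 10.47 ± 0.15 in water mice (SD, n = 5 each). Tyms, which makes thymidylate, averaged 10.28 ± 0.30 in nicotine mice and 9.74 ± 0.10 in water mice, and Mcm3, another helicase subunit, averaged 9.74 ± 0.29 in nicotine mice and 9.24 ± 0.09 in water mice. For these 3 genes the groups did not overlap, as for 9 of the 24 in all, against 1.63% of all genes.

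Factors that transcribe histone genes or cut their messages lay closer to 0. Of 23 measured, 17 were positive, with a median difference of 0.15, or 0.03 without nicotine mice 1 and 3, and 1 was higher at an unadjusted p under 0.05, which is near the 3.93% of all genes. No member separated the groups, against 1.63%. Zfp473, which acts in 3′ end processing and lay under the 25th percentile of level, averaged 6.21 ± 0.07 in nicotine mice and 6.06 ± 0.12 in water mice. Ccne1, the cyclin that with Cdk2 activates histone transcription, averaged 9.23 ± 0.57 in nicotine mice and 8.72 ± 0.07 in water mice, with 10.22 in nicotine mouse 3. Tut7, a uridylyl transferase of histone message decay, averaged 9.75 ± 0.29 in nicotine mice and 10.02 ± 0.06 in water mice, and Srrt, of the cap-binding pathway, averaged 10.10 ± 0.32 in nicotine mice and 9.78 ± 0.13 in water mice.

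Histone chaperones lay between these lists, with 15 of 18 positive, a median of 0.22, or 0.08 without nicotine mice 1 and 3, and 3 higher and 1 lower at an unadjusted p under 0.05, against 3.93% and 5.31% of all genes. Asf1b, the H3–H4 chaperone of cycling cells, measured 11.00, 10.21, 11.54, 10.19 and 10.22 in nicotine mice, against 9.55, 9.85, 9.73, 9.76 and 9.85 in water mice. Chaf1b, of the assembly factor CAF-1, averaged 10.77 ± 0.28 in nicotine mice and 10.31 ± 0.17 in water mice. Both separated the groups, and they were the only 2 of the 18 to do so, against 1.63% of all genes. Dnajc9 averaged 9.96 ± 0.32 in nicotine mice and 9.63 ± 0.07 in water mice, and Rbbp7, an H4-binding protein, averaged 11.28 ± 0.18 in nicotine mice and 11.50 ± 0.06 in water mice.

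Replacement variants, made outside S phase as well, were positive in 8 of 9, with a median of 0.48, or 0.15 without nicotine mice 1 and 3, and 5 of the 9 separated the groups, against 1.63% of all genes. The list held 18 symbols, older and newer ones of the same genes among them, of which 9 were measured. H2ax, the variant phosphorylated at DNA breaks, measured 10.26, 9.21, 9.99, 9.36 and 9.43 in nicotine mice, against 9.18, 8.82, 8.67, 8.91 and 9.14 in water mice. H2az1 averaged 12.30 ± 0.27 in nicotine mice and 11.93 ± 0.03 in water mice, and H2az2 averaged 11.16 ± 0.44 in nicotine mice and 10.66 ± 0.06 in water mice; both encode H2A.Z, which marks promoters. H3f3a, which encodes H3.3, averaged 6.84 ± 0.04 in nicotine mice and 6.71 ± 0.03 in water mice, a small but separated difference. Its signal was low, just above the 25th percentile of mean level, 6.55. None of the genes of these 4 lists passed an adjusted p of 0.05 in limma with equal weights. With array weights, 8 of 24 S-phase genes, 0 of 23 transcription and processing factors, 2 of 18 chaperones and 2 of 9 replacement variants passed, all higher under nicotine, against the 0.762% of all genes given above, so that gaining calls under those weights was not limited to the histone genes.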

How the data were processed

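The authors deposited 1 table of log2 values for 35556 probe sets on 10 arrays; the steps that made it, and the build of the array annotation, are not given in the sources used. Values ran from 3.59 to 14.12, and array medians from 7.50 to 7.57. Per the labels' protocols, total RNA was amplified with a whole-transcript kit, so that messages without a poly(A) tail can be read. The number of arrays limits the precision, and nothing in the labels says more about how the mice were sampled.

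Of the probe sets, 21789 carried 1 gene symbol, 1621 several and 12146 none. The highest-mean single-symbol probe set was kept for each of 19938 genes and all were fitted, unfiltered, with limma 3.58.1 in R 4.3.3 (lmFit and eBayes, two-sided, Benjamini-Hochberg over all genes, threshold 0.05). Correlations used Pearson's r and Spearman's rho over 8 mice, with exact permutation p-values (Python 3.11.15, SciPy 1.17.1). The fits were tested on simulated data.

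Genes were named by this rule: up to 5 per family and up to 4 per list with the smallest unadjusted p, the 3 with the widest range, the most negative difference, and every replacement or germ-cell histone, with Mki67 and Tk1. H2bc4 and H2bc21 were described in full after their values were seen, and the few histones left over are given by their differences. The members, lists and rules were chosen with earlier results of these data known. Alternatives covered the level filter, probe set choice, shared probe sets, renormalization, array weights, covariates, the mouse number as a block, and leaving out mice; correlations over all 10 mice, the removal of low-level members and the shared probe sets without nicotine mice 1 and 3 were added after seeing the data.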

Additional observations from a re-analysis of the deposited data

Results flagged for a closer look

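In 68 groups of 5 mice, 4 had 1 mouse far from the other 4 by Dixon's criterion, and chance alone flags about 1 group in 20. H2bc4 was 9.92 in nicotine mouse 3, against 11.42 to 11.87 in the other nicotine mice. H2bc4 was also 11.56 in water mouse 5, against 11.26 to 11.31 in the other water mice. H2bc21 was 7.66 in nicotine mouse 1, against 6.59 to 6.71 in the other nicotine mice. The median deviation of the H2A genes was 0.0812 in water mouse 5, against −0.0497 to −0.0307 in the other water mice.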

How the results depend on the processing

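Of the summary values under an alternative, 332 stayed within their limits and 40 moved; of the single-gene values, 516 kept direction and side of the threshold, 11 newly passed it (all with array weights) and 15 changed sign. Leaving out nicotine mice 1 and 3 gave medians of 0.22 for all histone genes, 0.22 for H2A, 0.28 for H2B, 0.30 for H4 and 0.15 for replacement variants. Array weights gave 11 genes past the adjusted threshold and medians of 0.24 for all, 0.23 for H2A, 0.28 for H2B and 0.16 for replacement variants. The H1 median was 0.52 with the level filter or without low-level members, and 0.56 without replacement and germ-cell histones. Adding shared probe sets, which adds features, gave 40 higher at an unadjusted p under 0.05 and 36 with separated groups. Leaving out 1 mouse at a time gave 12 to 18 genes higher at an unadjusted p under 0.05, 12 to 15 with separated groups, and medians of 0.42 to 0.67. A separated count cannot fall when a mouse is left out. Shares over all genes are not given for adding shared probe sets or leaving out 1 mouse, so those counts describe the histone genes only. H2bc4 turned positive when quantile normalized again (0.0051), with array weights (0.28), with a seminal vesicle covariate (0.13), without nicotine mice 1 and 3 (0.24), without nicotine mouse 3 (0.32) and without water mouse 5 (0.02). H1f2 turned positive with array weights (0.19), with the covariate (0.0066), without nicotine mice 1 and 3 (0.13) and without nicotine mouse 3 (0.19). H2bc21 turned negative with array weights (−0.0188), without nicotine mice 1 and 3 (−0.0377) and without nicotine mouse 1 (−0.0432), and H1f8 turned positive without nicotine mouse 5 (0.0038) or water mouse 2 (0.0299). With 1 mouse left out, H2bc4 spanned −0.173 to 0.316, H1f2 −0.242 to 0.188, H2bc21 −0.0432 to 0.223 and H1f8 −0.0487 to 0.0299. The cause was not tested.

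For Mki67, 0 histone genes passed without the 2 farthest mice, with group as a covariate (median r 0.23), with the seminal vesicle covariate or with the replicate block, and 0 to 1 with 1 mouse left out (median r 0.54 to 0.76). Over all 10 mice 20 passed (median r 0.90), against 20.2% of all genes. With group as a covariate over all 10 mice 18 passed (0.82), and the share over all genes in that fit is not given. For Tk1 the median r was 0.51 without the 2 farthest mice, 0.0326 with group, 0.27 with group over all 10 mice, 0.49 as rho, and 0.55 to 0.77 with 1 mouse left out, when 0 to 2 passed. The labels do not say whether the mouse numbers pair the groups. Same-numbered mice had correlations of −0.12 to 0.16 in their deviations, and 0 of 5 nicotine mice correlated best with their own number. With so few mice this cannot exclude a pairing. With the replicate block, 13 histone genes were higher at an unadjusted p under 0.05 and 0 passed the adjusted threshold. The share over all genes in that fit is not given.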
